A study of Mus musculus with 4 samples.

Results

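A set of 10 transcription factor genes that endothelial biology treats as common to the lineage were followed across endothelial classes of the newborn mouse ear: Erg, Fli1, Ets1, Ets2 and Elk3 of the ETS family, the basic helix-loop-helix factor gene Tal1, the forkhead genes Foxo1 and Foxp1, the hypoxia-inducible factor gene Epas1 and the MADS-box gene Mef2c. They were taken by symbol as 10 of the 31054 rows of each mRNA matrix, and 10 of 10 were among the 10415 genes tested. Cells came from ears of C57BL/6 mice at postnatal day 8, were enriched on beads and then sorted live as CD31 positive and positive for a red reporter switched on by the Cdh5CreERT2 driver, so both the gate and the driver select cells that have used an endothelial promoter. All libraries shared this genotype, age and sort and formed 1 group with no treatment, so the comparisons lie between cell classes within each of 2 biological replicate mRNA libraries. The labels do not say how many animals went into a library or when the reporter was induced. With library as a block, p-values measure how far differences between classes varied from 1 library to the other, pooled over 9 classes. They do not measure the spread between animals. Adult and wounded adult ears, which the protocol names, and the antibody tag libraries were not analysed here.

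ETS factors bind a GGAA core that most endothelial enhancers and promoters carry, and ERG and FLI1 are known for holding endothelial genes on while LMO2, TAL1 and GATA2 form a complex that shares enhancers with them. FOXO1 is held out of the nucleus by growth factor signalling through AKT and restrains endothelial growth, FOXP1 is a forkhead repressor, and EPAS1, also named HIF-2α, pairs with ARNT on hypoxia response elements when prolyl hydroxylases leave it undegraded. MEF2C is released from class IIa histone deacetylases by growth factor and flow signals and drives Klf2 and Klf4.

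The libraries held 1745 and 2877 barcodes with 15989249 and 26675353 UMIs, of which 1500 and 2250 passed the cell filter, and 3 barcodes occurred in both libraries. Endothelial cells (1346 and 2020) were split by marker genes, none of them a member, into 303 and 612 lymphatic-like and 1036 and 1391 blood-like cells, and the latter into artery-like, vein-like, capillary-like and tip-like cells. No type was given to 264 and 401 blood-like cells, and 87 and 138 lay just outside against 81 and 144 just inside the margin of the type score. Non-dividing classes held 135 to 478 cells per library, and dividing classes, defined by at least 5 of 14 proliferation markers, held 28 to 134. Artery-like dividing cells (11 and 9) were too few to enter the fit. The vein-like class of library 1 also held artery markers summing to 2806 CPM, against 785 CPM in library 2, with Eln (2108 and 433 CPM) in front and Gja5 at 0 in both. Immediate-early genes, which respond to stress and dissociation, were higher in library 2 for 16 or 17 of 17 genes in the 7 blood-like classes.

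As a check of the name pan-endothelial, the members were counted in the 27 and 55 cells that carried fewer than 3 of 6 endothelial markers, of which 14 and 35 passed the pericyte and smooth muscle gate and 7 and 6 the keratinocyte gate. Erg had no UMI in them, so 0 of 27 and 0 of 55 cells, with exact upper limits of 12.8% and 6.49%, and a floor of 3 counts put its level at up to 12.3 and 8.57 CPM. Both limits lay below the unthinned 16.3% to 34.6% of the non-dividing endothelial classes. Median depths were 7097 and 5918 UMIs in the marker-poor cells and 5756 to 8904.5 in those classes. Both floors also lay below the lowest unscaled level of those classes, 19.0 CPM. After every cell was thinned to 3000 UMIs the limits were 15.4% and 8.41%. These overlap the thinned 6.32% to 20.9% of the non-dividing endothelial classes, so at 3000 UMIs a lower share of cells with Erg was not detectable. Fli1 had 1 and 6 UMIs, Elk3 3 and 11, and Tal1 0 and 4. With the same thinning, Elk3 was seen in 4.55% and 7.14% of these cells against 41.4% to 72.6% over the non-dividing endothelial classes. Mef2c, in contrast, was seen in 45.5% and 59.5% of the marker-poor cells, within its endothelial range of 39.2% to 71.9%.

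Epas1 went against the name in the other direction. It was detected after thinning in 12.2% (95% exact binomial interval 8.41 to 16.8) and 11.8% (9.03 to 15) of lymphatic-like cells, below its 40.9% (20.7 to 63.6) and 45.2% (29.8 to 61.3) in the marker-poor cells. Without thinning these shares were 31.1% and 26.2% in lymphatic-like cells, at median depths of 8207 and 8904.5 UMIs, and 44.4% and 50.9% in the marker-poor cells at 7097 and 5918 UMIs. Intervals and floors cover counting error only. In these marker-poor cells Fli1 was at 4.11 and 17.1 CPM and Elk3 at 12.3 and 31.4 CPM, below every endothelial class, and Tal1 in library 2 was at 11.4 CPM from 4 UMIs in 1 cell. Epas1, Ets1, Foxp1 and Mef2c were not restricted to cells with 3 or more endothelial markers, with 103 and 186 CPM for Ets1 and 160 and 82.8 CPM for Foxp1 in the marker-poor cells. Ets2 (69.8 and 40.0 CPM) and Foxo1 (45.2 and 34.3 CPM) were also detected there, below every endothelial class. The marker-poor cells had passed the same sort, and 5 and 10 of them passed no other cell type's gate. They are therefore not shown to be non-endothelial. Cells with 3 or more endothelial markers that also passed another cell type's gate were not counted.

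**Figure D1:**
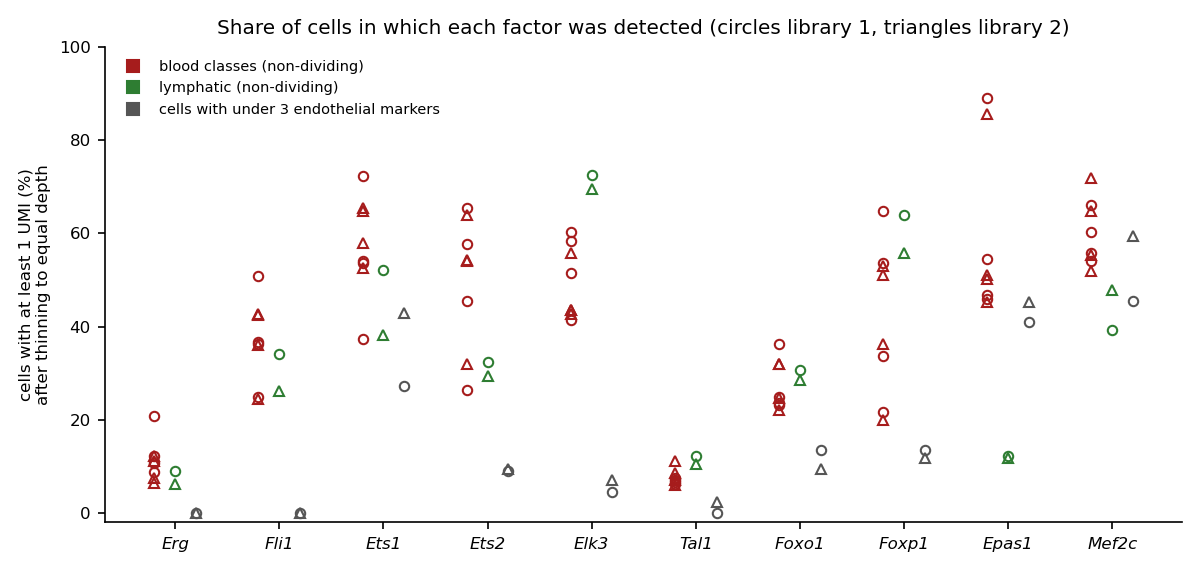
Share of cells (y axis, percent) with at least 1 UMI of each factor (x axis) after every cell was thinned to 3000 UMIs, for the 4 non-dividing blood-like classes, the non-dividing lymphatic-like class and cells with fewer than 3 endothelial markers; circles are library 1 and triangles library 2. Erg and Fli1 sit at 0 in the marker-poor cells of both libraries, and Epas1 in lymphatic-like cells (12.2% and 11.8%) sits below its marker-poor values.

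The genes lie on 8 chromosomes, and 4 of the ETS genes lie as neighbouring pairs (GRCm38, GENCODE vM21). Erg at chr16:95359169-95586593 on the minus strand and Ets2 at chr16:95702075-95721051 on the plus strand are divergent neighbours 115 kb apart with no other coding gene between them. Fli1 (chr9:32422204-32542861, minus) and Ets1 (chr9:32636221-32757820, plus) are likewise divergent, 93.4 kb apart. Foxp1 shares its strand with the overlapping gene model Gm20696, so its reads could be split between them and its counts are uncertain to that extent. RefSeq promoter windows of GRCm38.p6 matched 7 of the 10 members with 14 start sites, and Fli1, Ets1 and Epas1 had no entry. The 250 bases before a start were searched on both strands for the ETS core GGAA, the GATA word AGATAA, the forkhead word GTAAACA, the hypoxia response word ACGTG and the TAL1 E-box CAGATG, and for the MEF2 motif. Among 32851 promoter windows of that length 93.4% held GGAA and 9.99% held AGATAA. Of the 14 member windows 12 held GGAA. The windows below, of 1 ETS gene and of Tal1, are examples without and with the core, which is in capitals on either strand; the Erg and Tal1 windows not shown hold 4 and 3. The first Erg window (chr16:95586594-95586843, minus) holds no GGAA, as 6.55% of all windows do, the third (chr16:95459349-95459598, minus, inside the longest Erg model) holds 2, and the first Tal1 window (chr4:115056176-115056425, plus) holds 4, and the last 2 windows also hold 1 AGATAA each.
Erg start 1: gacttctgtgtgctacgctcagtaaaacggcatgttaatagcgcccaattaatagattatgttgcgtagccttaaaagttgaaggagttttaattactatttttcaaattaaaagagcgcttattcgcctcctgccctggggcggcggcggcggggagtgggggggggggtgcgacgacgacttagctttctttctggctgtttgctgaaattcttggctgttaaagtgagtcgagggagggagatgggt
Erg start 3: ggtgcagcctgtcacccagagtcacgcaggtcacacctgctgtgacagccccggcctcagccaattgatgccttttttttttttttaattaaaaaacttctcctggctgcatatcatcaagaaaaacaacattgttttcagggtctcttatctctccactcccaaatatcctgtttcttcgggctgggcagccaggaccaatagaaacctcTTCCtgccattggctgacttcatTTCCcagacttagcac
Tal1 start 1: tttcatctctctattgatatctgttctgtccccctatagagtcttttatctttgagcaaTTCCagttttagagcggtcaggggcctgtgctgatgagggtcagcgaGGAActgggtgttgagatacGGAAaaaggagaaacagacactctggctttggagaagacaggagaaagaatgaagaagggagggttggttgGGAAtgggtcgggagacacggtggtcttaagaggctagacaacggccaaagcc
No member window held the forkhead word, the hypoxia response word or the MEF2 motif, against 3.17%, 16.6% and 3.2% of all windows. The TAL1 E-box occurred once, in a Mef2c window, and is in 14.4% of all windows. Counts from 3′ libraries do not tell start sites apart, so no level can be given to a window, and a match is a description of letters only.

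Lymphatic-like and blood-like cells were compared first, among non-dividing cells and against the mean of the 4 blood types, by edgeR's quasi-likelihood test with Benjamini-Hochberg adjustment over all genes. Epas1 showed the widest gap of the 10. Its level, in TMM-scaled CPM over the UMIs of a class in a library, was 738 and 845 in artery-like cells of libraries 1 and 2, 246 and 301 in capillary-like, 219 and 253 in tip-like and 203 and 237 in vein-like cells. In lymphatic-like cells it was 46.5 and 43.0, below every blood value. The log2 change was -2.88 ± 0.12 (SE from the fit, edgeR adjusted p = 4.26e-15), a 7.38-fold lower level, and it was lower in both libraries (-2.62 and -2.96). In all, 8 of the 10 members passed, 2 higher and 6 lower in lymphatic-like cells, where 41.4% of all genes passed (21.0% higher and 20.4% lower). The median log2 change was -0.54 over the 10 and 0.02 over all genes.

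Elk3, a ternary complex factor of the ETS family that acts with serum response factor, was higher in lymphatic-like cells. Its level there was 436 and 441 CPM, while the 8 blood-like values lay between 192 and 282, with no overlap. The change was 0.90 ± 0.08 (edgeR adjusted p = 5.82e-09). Foxp1 was higher too, at 0.84 ± 0.13 (edgeR adjusted p = 1.65e-05). Its lymphatic-like levels of 432 and 307 CPM overlapped the vein-like levels of 475 and 291, so the difference rests on the other blood types, of which tip-like cells were lowest at 88.3 and 103.

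The remaining ETS factors were lower in lymphatic-like cells. Ets2, a Ras- and MAP kinase-responsive factor, was at 125 and 132 CPM there and at 114 and 169 in artery-like cells, which overlapped, but at 240 to 405 in all other blood-like classes (log2 -1.03 ± 0.11, edgeR adjusted p = 2.74e-08). Ets1 stood at 232 and 192 CPM against 188 to 452 in blood-like cells, and Fli1 at 129 and 103 against 91.7 to 213; their changes were -0.62 ± 0.11 and -0.46 ± 0.11 (edgeR adjusted p = 6.87e-05 and 0.00109). The Ets1 values overlapped the vein-like class, and the Fli1 values lay above both artery-like values and below the other 3 classes. Erg was at 32.03 and 19.6 CPM against 31.5 to 49.2 in blood-like cells, so library 1 overlapped the capillary-like class, and the change was -0.71 ± 0.17 (edgeR adjusted p = 0.00123). With at least 1000 genes and at most 5% mitochondrial UMIs per cell the Erg call was lost (edgeR adjusted p = 0.0859), and the other 7 calls held under all 13 alternatives.

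Mef2c, a driver of vascular and lymph valve flow programmes, was lowest in lymphatic-like cells at 174 and 221 CPM, below every blood-like value (293 to 461), with a change of -0.88 ± 0.10 (edgeR adjusted p = 7.47e-08). Tal1 and Foxo1 did not pass. Tal1 was at 39.4 and 28.5 CPM in lymphatic-like and 19.6 to 38.3 in blood-like cells (0.24 ± 0.16, edgeR adjusted p = 0.266), and Foxo1 at 135 and 101.2 against 94.2 to 164 (0.08 ± 0.14, edgeR adjusted p = 0.679).

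**Figure D2:**
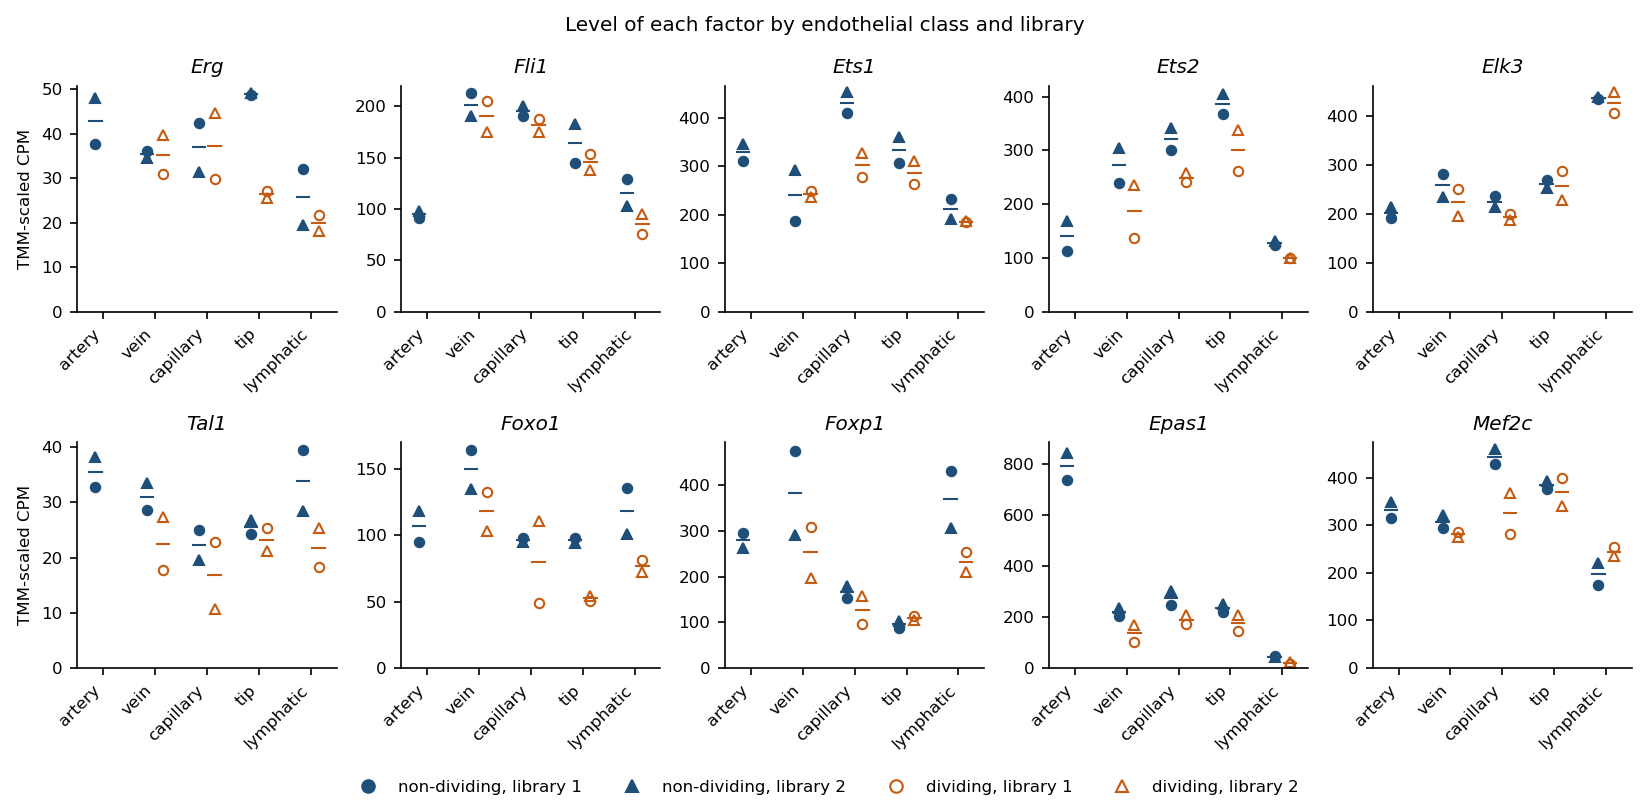
Level of each factor (y axis, TMM-scaled CPM, from 0) by endothelial class (x axis) in non-dividing (filled) and dividing (open) cells; circles are library 1, triangles library 2 and short lines the mean of both. Epas1 is highest in artery-like cells (738 and 845 CPM) and lowest in lymphatic-like cells, Elk3 is highest in lymphatic-like cells, and Foxp1 is lowest in tip-like cells.

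The pathway lists around these factors were read in the same comparison, where 21.0% of all genes were higher and 20.4% lower. Of 18 tested HIF target genes 5 were higher and 11 lower in lymphatic-like cells, with a median log2 change of -0.60, and the lower ones included the glucose transporter gene Slc2a1 (-2.30 ± 0.22), the pyruvate dehydrogenase kinase gene Pdk1 (-2.85 ± 0.30) and Ankrd37 (-2.15 ± 0.20). Hif1a, the paralogue of Epas1, was also lower at 57.4 and 63.5 CPM against 111.5 to 251 in blood-like cells (-1.42 ± 0.11, edgeR adjusted p = 4.78e-10), and the hydroxylase gene Egln3 was higher (2.40 ± 0.24). The gene of smallest adjusted p in the HIF pathway list was the NF-κB inhibitor gene Nfkbia, which was lower (-1.31 ± 0.07). Among 20 endothelial genes known to be bound or activated by ETS factors, 15 were lower and 3 higher with a median of -1.28, led by the VEGF receptor gene Flt1 (-4.71 ± 0.16), the lectin-like gene Clec14a (-4.45 ± 0.21) and the phosphatase gene Ptprb (-2.36 ± 0.11). Of the MEF2 and class IIa deacetylase list 4 of 8 were lower, with Mef2d at -1.53 ± 0.14 and Hdac5 at -1.64 ± 0.20, and 2 were higher, with Klf4 at 1.14 ± 0.11.

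The list of other forkhead genes had 4 of 12 higher and none lower in lymphatic-like cells. Foxc2, which shapes lymph valves, was at 149 and 60.9 CPM there and at most 9.32 CPM in a blood-like class. Foxp2, a paralogue of Foxp1, was at 113 and 52.3 CPM against a mean of at most 0.75 CPM in a blood-like class. Both were higher in library 1 than in library 2 within the lymphatic-like class. Foxp4 was higher by 2.20 ± 0.31, and Foxc1, the fourth, which was named after its value was seen, by 0.47 ± 0.15. In the TAL1 complex list 3 of 11 were higher and 4 lower, among them the adaptor gene Ssbp2 (2.86 ± 0.13) and Lyl1, the closest paralogue of Tal1 (1.62 ± 0.14), against the E protein gene Tcf4 (-1.09 ± 0.09). The other ETS genes had 1 of 12 higher, Etv4 (1.29 ± 0.33), and 3 lower, led by Elf1 (-1.06 ± 0.15). Both of these counts, and the higher count of the TAL1 complex list, are near or below the shares over all genes. The FOXO1 list, of 21 tested genes, split into 9 higher and 7 lower, with the antagonist ligand gene Angpt2 (2.00 ± 0.23) and the kinase gene Sgk1 (1.01 ± 0.12) higher and the PI3K inhibitor gene Pik3ip1 lower (-1.93 ± 0.20). Of 17 immediate-early genes 12 were lower and 1 higher in lymphatic-like cells, and their part in the members' differences was not tested beyond the alternative that left out the cells richest in them.

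Between artery-like and vein-like cells 5 of the 10 members passed, 2 higher and 3 lower in artery-like cells, where 18.9% of all genes passed (9.40% higher and 9.46% lower). The median was -0.12 over the 10 and -0.01 over all genes. Epas1 was 3.60-fold higher in artery-like cells (1.85 ± 0.12, edgeR adjusted p = 7.84e-11) with nearly the same value in each library (1.86 and 1.84). Fli1 was at 91.7 and 98.3 CPM in artery-like and 213 and 191 in vein-like cells, the lowest and the highest of its 5 non-dividing class means, with a change of -1.09 ± 0.15 (edgeR adjusted p = 7.28e-06). Ets2 was lower by a similar size, at 114 and 169 against 240 and 305 CPM (-0.96 ± 0.14, edgeR adjusted p = 1.42e-05). These 3 calls held under all 14 alternatives, including the vein gate without the activation markers Sele and Il1r1.

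Ets1 and Elk3 passed more narrowly. Ets1 was at 311 and 346 CPM in artery-like and 188 and 292 in vein-like cells (0.46 ± 0.14, edgeR adjusted p = 0.0223), and it missed the threshold in 5 of 14 alternatives, where the adjusted p reached 0.348. Elk3 was at 192 and 214 against 282 and 236 CPM (-0.35 ± 0.12, edgeR adjusted p = 0.0466) and missed it in 10 of 14. Without the block on library both calls were lost (edgeR adjusted p = 0.108 and 0.139), and likewise when the cells richest in immediate-early UMIs were left out (0.347 and 0.22). Foxo1 and Foxp1, at log2 -0.48 ± 0.19 and -0.44 ± 0.18, did not pass (edgeR adjusted p = 0.0846 and 0.103), although each passed in 6 of 14 alternatives. Foxp1 differed between libraries within vein-like cells (475 and 291 CPM), the class that in library 1 also held the artery markers named above; the part of those cells in the Foxp1 value was not tested. Erg (0.27 ± 0.23), Tal1 (0.19 ± 0.24) and Mef2c (0.11 ± 0.12) did not pass either.

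The neighbouring gene pairs were read side by side here. Fli1 was lower in artery-like cells while its neighbour Ets1 was higher, and Ets2 was lower while its neighbour Erg did not pass. Across the 18 sums of class and library, Pearson's r of log2 CPM was 0.39 for Fli1 with Ets1 and 0.55 for Erg with Ets2, against 0.72 for Fli1 with Ets2, which lie on different chromosomes. The highest r between members was 0.80, for Ets1 with Mef2c, and the lowest was -0.84, for Elk3 with Epas1. These points share libraries and their depths, and r describes them without a test.

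In the lists, 8 of 18 HIF target genes were higher in artery-like cells and none was lower, with the collagen cross-linking gene Lox (2.86 ± 0.34), the mitophagy gene Bnip3 (1.51 ± 0.35) and Ankrd37 (0.93 ± 0.22) named by smallest p. Within the HIF pathway list 3 of 10 were lower and none higher. These were the NF-κB inhibitor gene Nfkbia (-0.91 ± 0.09), which had the smallest adjusted p, Hif1a (-0.80 ± 0.14) and the hydroxylase gene Egln1 (-0.72 ± 0.13). The HIF alpha genes Hif1a and Epas1 thus differed in opposite directions between these classes. The TAL1 complex list had 5 of 11 higher and none lower, including Lmo2 (1.62 ± 0.16), Gata2 (1.92 ± 0.24) and Lyl1 (1.22 ± 0.22), while Tal1 itself did not pass. The flow-responsive genes Klf4 (0.60 ± 0.15) and Klf2 (0.54 ± 0.13) of the MEF2 list were higher, and no other ETS gene of 12 passed. Genes known to be bound by ETS factors split into 6 higher, led by Cldn5 (2.40 ± 0.16), and 4 lower, led by Emcn (-1.70 ± 0.14). Foxc1 (-1.34 ± 0.22) and Foxp4 (-1.85 ± 0.62) were the 2 of 12 forkhead genes that passed, both lower, and the FOXO1 list had 4 higher and 4 lower of 21. Over all genes 9.40% were higher and 9.46% lower between these classes.

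**Figure D3:**
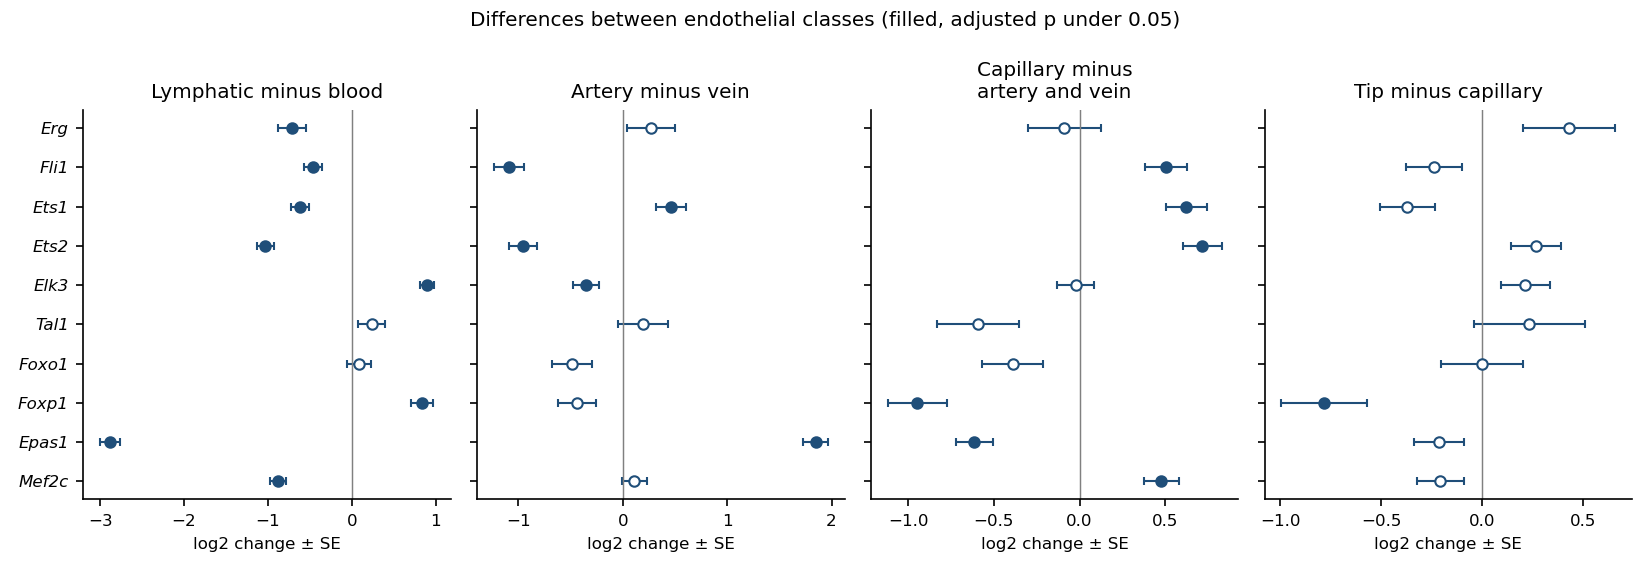
Log2 change (x axis, 1 panel a comparison, each with its own scale) of each factor (y axis) in the 4 comparisons between non-dividing classes, with bars of 1 standard error; filled points passed edgeR's adjusted threshold of 0.05. Epas1 lies farthest from 0 in lymphatic-like against blood-like cells (-2.88) and in artery-like against vein-like cells (1.85).

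Capillary-like cells were set against the mean of artery-like and vein-like cells, and 6 of the 10 members passed, 4 higher and 2 lower, where 9.27% of all genes passed (4.96% higher and 4.30% lower). The medians were -0.06 over the 10 and -0.00 over all genes. Mef2c was highest in capillary-like cells at 428 and 461 CPM, above every other class, and the change was 0.48 ± 0.10 (edgeR adjusted p = 0.00271). Ets1 was likewise highest there, at 409 and 452 CPM, and was higher by 0.62 ± 0.12 (edgeR adjusted p = 0.000946). Ets2 (300.1 and 341 CPM) was higher by 0.72 ± 0.11 and Fli1 (191 and 201 CPM) by 0.50 ± 0.12. Both overlapped the vein-like cells, which were at 240 and 305 CPM for Ets2 and at 213 and 191 for Fli1. Artery-like cells were lower, at 114 and 169 CPM for Ets2 and at 91.7 and 98.3 for Fli1. Foxp1 was lower at 154 and 179 CPM against 263 to 475 in artery-like and vein-like cells, with no overlap and a change of -0.95 ± 0.17 (edgeR adjusted p = 0.000663). Epas1 was lower against that mean (-0.61 ± 0.11, edgeR adjusted p = 0.000308), and its capillary-like values of 246 and 301 CPM lay below both artery-like and above both vein-like values.

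The Ets2 and Foxp1 calls held in all 13 alternatives. With Leiden clusters in place of gates the Fli1 and Mef2c calls were lost (edgeR adjusted p = 0.169 and 0.0865), with the third random seed of the clustering the Ets1 call too (0.0728), and without the library block the Epas1 call (0.0516). The stricter cell filter, which tested fewer cells, lost the calls of Fli1, Ets1, Epas1 and Mef2c. Rgs5, a pericyte marker, was among the 10 leading genes of the non-dividing capillary-like class. The 9 pericyte and smooth muscle markers summed to 94.5 and 65.1 CPM there. Over the other non-dividing blood-like classes they summed to 63.5 to 96.5 CPM. Tal1 (-0.59 ± 0.24) and Foxo1 (-0.39 ± 0.18) did not pass (edgeR adjusted p = 0.154 and 0.228).

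Among the lists in this comparison, Egln1, whose hydroxylase marks HIF alpha proteins for destruction, was higher (1.02 ± 0.10). So were the lipid droplet gene Plin2 (1.40 ± 0.14) and the vasodilator peptide gene Adm (2.73 ± 0.70), and 1 of 18 HIF targets, Lox, was lower. Nfkbia of the HIF pathway list was lower too (-0.64 ± 0.08). Lmo2 (-1.08 ± 0.15) and Lyl1 (-1.15 ± 0.24) were among 4 of 11 lower TAL1 complex genes, and Tcf4 was higher (0.43 ± 0.09). Klf2 (-0.93 ± 0.12) and Klf4 (-0.92 ± 0.14) were lower, so both KLF genes were low in the class where Mef2c was highest. The VEGF receptor gene Kdr (0.98 ± 0.08) was 1 of 3 higher genes of the ETS-bound list, and Ptprb (-1.05 ± 0.11) was 1 of 6 lower. Elk4 was the single other ETS gene of 12 to pass, at 0.50 ± 0.13. Over all genes 4.96% were higher and 4.30% lower, so a single gene of a list is near those shares.

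Between tip-like and capillary-like cells 1 of the 10 members passed, where 2.77% of all genes did (1.36% higher and 1.40% lower). This was Foxp1, at 88.3 and 103 CPM in tip-like and 154 and 179 CPM in capillary-like cells, the lowest pair of any non-dividing class, with a change of -0.78 ± 0.21 (edgeR adjusted p = 0.0495). The call held in 6 of 13 alternatives and was lost without the library block (edgeR adjusted p = 0.218) and with DESeq2 (0.161). Ets2 was at 368 and 405 CPM in tip-like cells, above both capillary-like values, but did not pass (0.27 ± 0.13, edgeR adjusted p = 0.363), nor did Ets1 at -0.37 ± 0.14 (edgeR adjusted p = 0.196). Erg stood at 48.7 and 49.2 CPM in tip-like cells, its highest class mean, and did not pass either (0.43 ± 0.23). Etv4, an ETS gene of the PEA3 group that receptor kinase signalling induces, was the single other ETS gene to pass (2.81 ± 0.56), and Klf4 (-0.84 ± 0.16), Klf2 (-0.67 ± 0.14), Flt1 (-0.61 ± 0.13) and Ptprb (-0.94 ± 0.12) were lower in tip-like cells.

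Read over the 5 non-dividing classes, the ratio of the highest to the lowest class mean was 17.7 for Epas1, 4.01 for Foxp1 and 3.00 for Ets2, and between 1.55 and 2.25 for the other 7. Foxo1 was the flattest, from 149 CPM in vein-like to 96.2 CPM in capillary-like cells, and the 2 libraries of each class overlapped those of the next class at every step of its order. Tal1 followed at 1.60, with overlap at 3 of 4 steps. For Foxp1 the order was vein-like, lymphatic-like, artery-like, capillary-like and tip-like, with overlap at the first step and separate values at the other 3. For Epas1 artery-like cells stood apart at the top and lymphatic-like cells at the bottom, and capillary-like, tip-like and vein-like cells overlapped their neighbours in between. Each order was read from 2 libraries a class, and Epas1 and Ets2 were higher in library 2 in 8 of 9 classes (median log2 0.27 and 0.18), the library in which immediate-early genes were higher in blood-like cells; a part of those genes in the library difference was not tested.

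Dividing cells were compared with non-dividing cells of the same gated type. In blood-like cells, over vein-like, capillary-like and tip-like classes, 4 of the 10 members were lower and none higher where 28.2% of all genes passed (14.1% in each direction). All 10 estimates were below 0, with a median of -0.28 against -0.08 over all genes. Epas1 fell in each of the 3 types and both libraries, from 203 and 237 to 104 and 170.3 CPM in vein-like, from 246 and 301 to 172 and 207 in capillary-like and from 219 and 253 to 146 and 208 in tip-like cells. The change was -0.53 ± 0.08 (edgeR adjusted p = 3.76e-05), and it held in 13 of 13 alternatives. Ets2 fell by 0.41 ± 0.08 and Foxo1 by 0.50 ± 0.14 (edgeR adjusted p = 0.000546 and 0.0108). Foxo1 was at 50.6 and 54.5 CPM in dividing tip-like cells against 98.2 and 94.2 in non-dividing ones, without overlap, but at 49.2 and 111 in dividing capillary-like cells, which straddled the non-dividing values of 97.9 and 94.5. Summed over types, blood-like cells lost the Ets2 and Foxo1 calls (edgeR adjusted p = 0.0928 and 0.0811). That sum, 1 of the 13 alternatives, also took in artery-like and untyped cells, which the contrast over 3 types leaves out. Non-dividing artery-like cells had mean levels of 141 CPM for Ets2 and 792 CPM for Epas1. The part of this mix of types was not tested. The Mef2c call (-0.22 ± 0.07, edgeR adjusted p = 0.0293) was kept in 6 of 13 alternatives and lost without the library block (0.0875). Ets1 (-0.24 ± 0.09, edgeR adjusted p = 0.0508) and Foxp1 (-0.29 ± 0.13, edgeR adjusted p = 0.118) did not pass, but passed as lower in 6 and 3 of 13 alternatives.

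In lymphatic-like cells 4 of the 10 were lower and none higher in dividing cells, where 22.7% of all genes passed (12.5% higher and 10.2% lower). The lymphatic-like gate was not split into subtypes. In the Leiden clusters, dividing-gated cells made up 0.637% of a lymphatic cluster of 471 cells and 23.1% of another of 238. Ptx3 and Lyve1 were among the leading genes of the dividing class, and Fgl2 and Olfm1 of the non-dividing class. Division and subtype cannot be told apart here, and the part of subtype was not tested. Epas1 was at 13.7 and 22.9 CPM in dividing against 46.5 and 43.0 in non-dividing cells, lower in both libraries, with a change of -1.18 ± 0.19 (edgeR adjusted p = 9.72e-05) that held in 14 of 14 alternatives. Foxp1 was at 254 and 209.95 against 432 and 307 CPM (-0.66 ± 0.18, edgeR adjusted p = 0.00964), again without overlap. Foxo1 was at 81.1 and 72.0 against 135 and 101.2 CPM (-0.62 ± 0.19, edgeR adjusted p = 0.0218), and Ets2 at 99.4 and 99.2 against 125 and 132 (-0.40 ± 0.14, edgeR adjusted p = 0.0481). Without the library block the calls of Foxp1, Foxo1 and Ets2 were lost (edgeR adjusted p = 0.0684, 0.066 and 0.276), and over 14 alternatives they were kept in 12, 10 and 6. Mef2c was at 254 and 236 CPM in dividing and 174 and 221 in non-dividing lymphatic-like cells, the 1 estimate of the 10 above 0 (0.29 ± 0.12), and did not pass (edgeR adjusted p = 0.0882), although it passed in the 3 Leiden clusterings (0.0136, 0.0275 and 0.0131).

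The division effect was then tested for a difference between lymphatic-like and blood-like cells, and 0 of the 10 passed edgeR's adjusted threshold, where 0.403% of all genes did (0.154% higher and 0.250% lower), and DESeq2 called 0 as well. The unsplit lymphatic-like gate limits this test too. At an unadjusted p under 0.05 the count was 2. These were Mef2c (0.51 ± 0.14, edgeR adjusted p = 0.135) and Epas1 (-0.65 ± 0.21, edgeR adjusted p = 0.227), and Epas1 passed in both Leiden clusterings that gave a value (edgeR adjusted p = 0.00528 and 0.00448). Klf2 was the single gene of the fixed lists to pass this test (-0.78 ± 0.16, edgeR adjusted p = 0.0266), falling from 1918 and 1829 to 652 and 914 CPM in dividing lymphatic-like cells.

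These are levels in CPM, a share of all UMIs, and dividing cells held 1.39 to 1.96 times the UMIs of non-dividing cells of their type and library. The dividing gate counted detected markers, so deeper cells could pass it more easily, and its part in this excess of UMIs was not tested. In UMIs per cell, Fli1, Ets1, Ets2, Elk3, Foxp1 and Mef2c were higher in dividing cells in 8 of 8 strata of type and library. The share of all genes that were higher per cell in every stratum was not counted. Erg, Tal1 and Epas1 were higher in 6 of 8 and Foxo1 in 5 of 8, and the ratio for Epas1 ranged from 0.563 to 1.24. Its 2 ratios below 1 were both in library 1, at 0.563 in lymphatic-like and 0.909 in vein-like cells. Ets2 and Epas1 were lower in CPM in 8 of 8 strata, and Ets2 was higher per cell in the same 8.

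**Figure D4:**
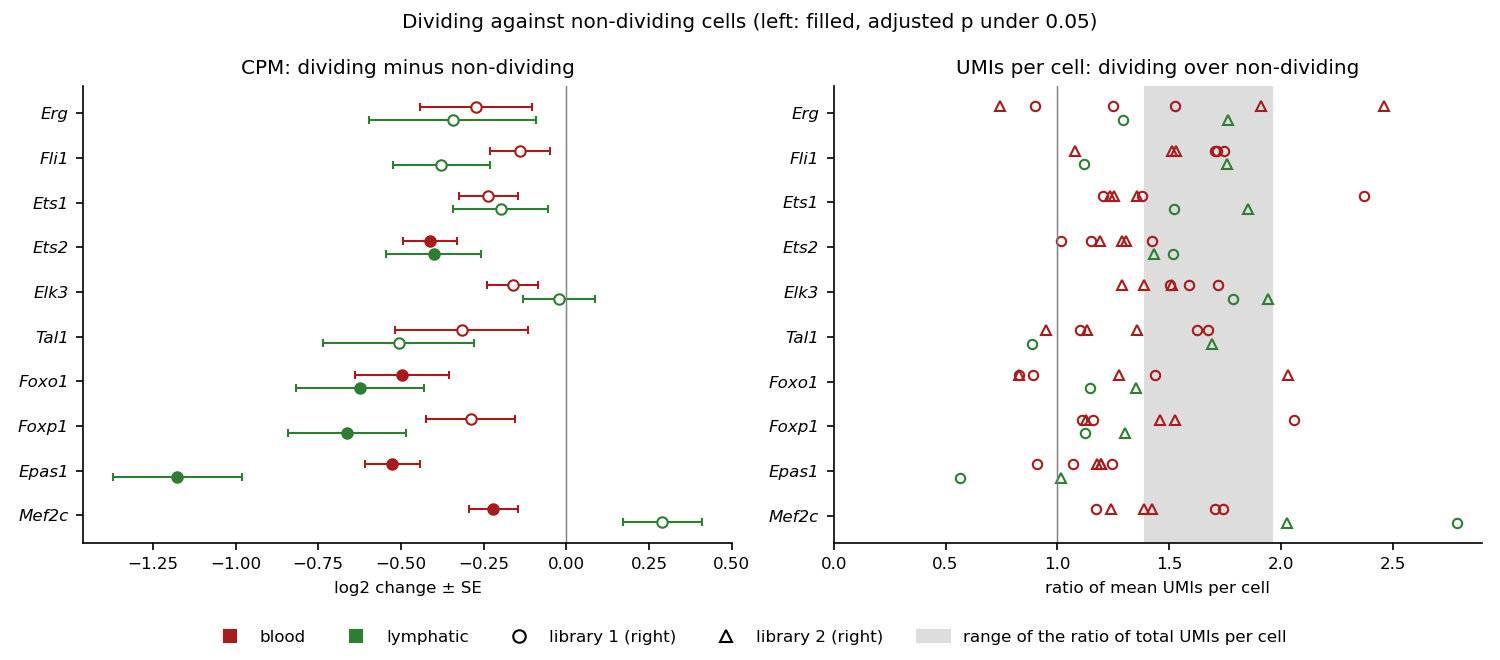
Left, log2 change of CPM in dividing against non-dividing cells (x axis, with 1 standard error) for each factor (y axis) in blood-like (red) and lymphatic-like (green) cells, filled where edgeR's adjusted p was under 0.05. Right, ratio of mean UMIs per cell (x axis, linear from 0) in each type and library, with the range of the ratio of total UMIs per cell (1.39 to 1.96) in grey; Epas1 is farthest left in both panels, in lymphatic-like cells.

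Genes of the lists were then counted against the 14.1% of all genes that were lower in dividing blood-like and the 10.2% that were lower in dividing lymphatic-like cells. In blood-like cells 10 of 20 ETS-bound endothelial genes were lower and none higher, among them Mmrn2 (-0.87 ± 0.08) and Ptprb (-0.56 ± 0.08), and in lymphatic-like cells 7 of 20 were lower, among them Mmrn2 (-1.24 ± 0.14). The FOXO1 list had 6 of 21 lower in blood-like and 8 of 21 lower in lymphatic-like cells, with Txnip, a brake on glucose uptake, lower in both (-0.63 ± 0.08 in blood-like cells). Immediate-early genes were lower for 14 of 17 in each. Foxm1, the forkhead factor of mitotic genes, rose by 4.05 ± 0.31 in blood-like and 5.12 ± 0.40 in lymphatic-like cells, and Etv4 rose in both (2.01 ± 0.38 and 1.66 ± 0.30). Of 18 HIF targets the glycolytic genes Pgk1 (0.80 ± 0.08 and 0.83 ± 0.12) and Ldha (0.52 ± 0.07 and 0.71 ± 0.11) rose in both, while 4 and 5 fell. Lower genes in blood-like and lymphatic-like cells numbered 4 and 2 of 11 in the TAL1 complex list. They numbered 4 and 3 of 8 in the MEF2 list and 4 and 1 of 10 in the HIF pathway list. No gene of these lists was higher. The lymphatic-like counts of the TAL1 complex and HIF pathway lists are near the share over all genes. The 1 gene of the HIF pathway list that was lower in dividing lymphatic-like cells was the NF-κB inhibitor gene Nfkbia (-0.42 ± 0.09). Nfkbia also had the smallest adjusted p of that list in dividing blood-like cells (-0.62 ± 0.05). Foxp2 (-1.72 ± 0.26) and Foxc2 (-1.37 ± 0.22) fell in dividing lymphatic-like cells, as Foxp1 did.

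Across the 18 sums of class and library, the genes whose log2 CPM ran most like each member were taken from 4658 well-detected genes. Epas1 ran closest to Smad7, an inhibitor of TGF-β signalling (Pearson's r = 0.979), and to Arl6ip5 (0.978). Foxp1 ran with Aldh2 (0.945) and the microfibril gene Fbn1 (0.928), and Ets2 with the junction gene Jam3 (0.944) and the polyamine oxidase gene Smox (0.939). Elk3 ran with Rnf141 (0.943) and Rhobtb3 (0.941), Ets1 with Itpkb (0.934) and Tcf4 (0.903), and Fli1 with the laminin receptor gene Itga6 (0.926) and Ndufa8 (0.912). Mef2c ran with Sec14l1 (0.917) and Pon2 (0.909). The closest genes were less alike for Erg (Nav1 at 0.857 and Ppp1r16b at 0.842), Foxo1 (Top3b at 0.848 and Ankrd12 at 0.83) and Tal1 (Usp19 at 0.788 and Sbno1 at 0.78), and Tal1 and Erg are also the 2 members with the fewest UMIs, down to 27 and 45 in a non-dividing class of a library. The 18 sums share 2 libraries and are not independent.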

How the data were processed

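The authors' deposited gene by cell matrices hold counts of UMIs per gene; per the submitters' processing notes they come from Cell Ranger on mm10, with Seurat 3.0.2 also named, and no Cell Ranger version is stated there. No step beyond the matrices is recorded in their headers, and free RNA was not corrected for. The 10 members and the gene lists were chosen with earlier results of these data known.

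Cells with at least 500 genes and at most 10% mitochondrial UMIs were kept. Endothelial cells had at least 3 of 6 endothelial markers and passed no gate of another cell type. Lymphatic-like cells had at least 4 of 11 markers, blood-like cells at most 2, and a blood type was the highest mean z-score of its markers with a margin of 0.2 or more. Cells that passed exclusive gates were left out in place of a doublet caller (149 and 220 cells by a non-endothelial gate, 7 and 17 between lymphatic and blood). UMIs were summed per class and library where each library had 20 cells, which gave 9 classes. Every comparison was a contrast of one edgeR 4.0.16 quasi-likelihood fit (R 4.3.3) over 10415 genes with TMM scaling, filterByExpr and library as a block, with Benjamini-Hochberg adjustment at 0.05. The library block rests on each library holding all classes: over 36 pairs of classes, same-library deviations correlated at 0.21 to 0.51. Log2 changes are given with a standard error from the fit, the log2 change over the square root of its F statistic. It rests on 18 sums of class and library with 8 residual degrees of freedom. The scripts were tested on simulated data.

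Shares of cells carry exact Clopper-Pearson intervals at 95%, and thinning drew 3000 UMIs per cell and left out shallower cells. Named genes were the 10 members, in each comparison the called list genes of smallest adjusted p (at most 3 a list), and for each member the 2 genes with the highest Pearson r among genes of average log2 CPM of at least 5. DESeq2 1.42.0, RLE factors, no count filter, no block, stricter gates, other cell filters, the top 5% of UMIs or the 25% of cells richest in immediate-early UMIs left out, Leiden clusters (scanpy 1.11.5), pooled blood types and thinning were alternatives. A vein gate without Sele and Il1r1, a dividing gate by UMIs per 10000 and other clustering seeds were chosen after seeing the data. Leaving out a library left no residual degrees of freedom and gave values with no test.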

Additional observations from a re-analysis of the deposited data

Results flagged for a closer look

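The division effect of Mef2c had opposite signs in the lymphatic-like and blood-like cells of both libraries. In lymphatic-like cells it was 0.48 and 0.04 on the log2 scale, and in blood-like cells -0.18 and -0.23. The difference between the effects was 0.512, and the edgeR test of that difference did not pass (adjusted p = 0.135). It passed in none of 13 alternatives (adjusted p 0.0557 to 0.508). The positive lymphatic-like value did not pass (edgeR adjusted p = 0.0882) but passed in the 3 Leiden clusterings of 14 alternatives, and the blood-like fall passed (edgeR adjusted p = 0.0293) and was kept in 6 of 13.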

How the results depend on the processing

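No called member value changed sign: over all alternatives 842 member values kept their side of the threshold, 32 moved past it and 56 lost it. Counts of genes past the threshold moved by over 1.5 times as follows. With the stricter cell filter 2346 genes passed in place of 4309 between lymphatic-like and blood-like cells, 830 in place of 1964 between artery-like and vein-like, 340 in place of 965 for capillary-like and 180 in place of 288 for tip-like cells. DESeq2 called 1220, 618 and 153 in the last 3 and 1303 in place of 2369 for dividing lymphatic-like cells. With no count filter 509 passed for tip-like cells and 221 in place of 42 for the difference in division effect. With no replicate block, the pairing by library removed, these were 121 and 8. For that difference Leiden clusters gave 70 and leaving out the top 5% of UMIs gave 26, and the third clustering seed gave 1633 for capillary-like cells. The second seed named no capillary-like cluster, so it gave values only for artery-like against vein-like cells and for dividing lymphatic-like cells, and the stricter cell filter left too few dividing cells. The cause of these shifts was not tested. Of 200 shares of cells 185 moved outside their interval when thinned. Thinning takes UMIs away and can only lower detection in a cell, and the intervals cover counting error only, so this count describes depth and tests nothing. The other calls that the block changed are given with the results.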
